A study of Saccharomyces cerevisiae with 4 samples.

Results

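The heat shock proteins and cytosolic chaperones of the budding yeast Saccharomyces cerevisiae were examined as a set of 34 genes, named by symbol from the Hsp70, Hsp90, small Hsp and Hsp100 families, the mitochondrial chaperones, their cochaperones, the aggregate-sorting factors BTN2 and CUR1, and the heat shock factor gene HSF1. Of the 34 genes, 32 had a probe set of their own, 1 each, among the 5656 genes measured. SSB1 and SSB2 had only a probe set in common, and 3 further probe sets were shared by SSA1 with SSA2 or by HSP82 with HSC82. Shared probe sets entered no count and are described separately.

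Chaperones bind unfolded protein and help it to fold, to be held soluble or to be pulled out of aggregates. Hsp70 proteins cycle on and off their clients with the aid of J proteins and nucleotide exchange factors, Hsp90 acts later on a narrower set of clients with its own cochaperones, and Hsp104 works with Hsp70 and the small Hsps on aggregates. In yeast many of these genes are driven by the factor Hsf1, some also by Msn2 and Msn4, and several families pair a constitutively expressed member with one induced by heat or other stress.

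RNA from exponentially growing cells of 4 strains was hybridised, with 1 array for each: the wild type W303-1A, mutants null for ubp10 or for sir4, and a double null mutant of both genes. UBP10 encodes a ubiquitin-specific protease that acts on histone H2B, and SIR4 a silencing protein of telomeres and the silent mating cassettes. The parent of the mutants, medium, temperature, marker alleles and number of clones are not given in the sources used here. With a single array per strain no difference has a replicate, an error or a test, and a culture that differed from the others for a reason other than its genotype cannot be told apart from an effect of the deletion.

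Values are average-difference intensities in the authors' deposited units. Intensities under a floor of 6.67 units, set at 3 times the noise, were raised to it. A call, higher or lower, needed a ratio of at least 2 and at least 13.3 units on the brighter array. Over genes that exceeded the floor on both arrays, the median log2 ratio was 0.49, 0.54 and 0.50 in 3 comparisons (sir4 null and double null against wild type, and double null against ubp10 null). Ratios and calls in those 3 are relative to that median, and those in the other two are as deposited. Because probe sets differ in their response, only ratios, not intensities, are compared between genes.

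The targeted genes and control probe sets bear on how the arrays may be read. UBP10 read 247.9 units in wild type and 269.2 in the strain labelled sir4 null, and was below the floor on both arrays of strains lacking the gene. SIR4 was dim everywhere, at 10.8 units in wild type, 4.9 in the ubp10 null, 20.7 for the labelled sir4 null array and 15.5 in the double null, so its values did not show the deletion and were higher on both arrays labelled as lacking it than in wild type. Statements about SIR4 therefore rest on the labels, and the single mutant is named by its label in all that follows. On that array the 3′ probe set of the actin gene ACT1 was 86.9 times as bright as the 5′ probe set, against 1.1 to 1.5 times on the others. MFA2, an a-factor gene that marks mating type a, read 1117.4, 1195.7 and 761.0 units on the wild-type, ubp10 null and labelled sir4 null arrays and 14.8 in the double null. Loss of SIR4 is known to derepress the silent mating cassettes and to shut off a-specific genes in a cells, so the MFA2 level on the array labelled sir4 null, like that of SIR4, went against its label.

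In the ubp10 null HSP30, SSA4, HSP26, HSP42, BTN2, SSE2, HSP104, HSP78, FES1, CUR1, HSP82 and MDJ1 were higher than in wild type, while the constitutive members of the Hsp70, Hsp110 and Hsp90 families (SSA1, SSA2, SSE1 and HSC82) were not called. Of the 32 genes 12 were called higher (37.5%) and 0 lower, against 9.44% higher and 8.38% lower among all 5656 genes. Their median log2 ratio was 0.54, against 0.00 over all genes. The list was drawn up with earlier results of these data known, so these shares describe it and are not independent support. The 20 genes not called ranged from 0.578 to 1.80 times wild type, the lowest being the Hsp90 cochaperone gene CNS1 and the highest HSP31. SSA1, SSA2 and HSC82 are among 140 genes with a mean of at least 1000 units. Of those 140 genes, 0 were called higher and 0 lower in this comparison. The part of brightness in the contrast between related genes was not tested.

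**Figure D1:**
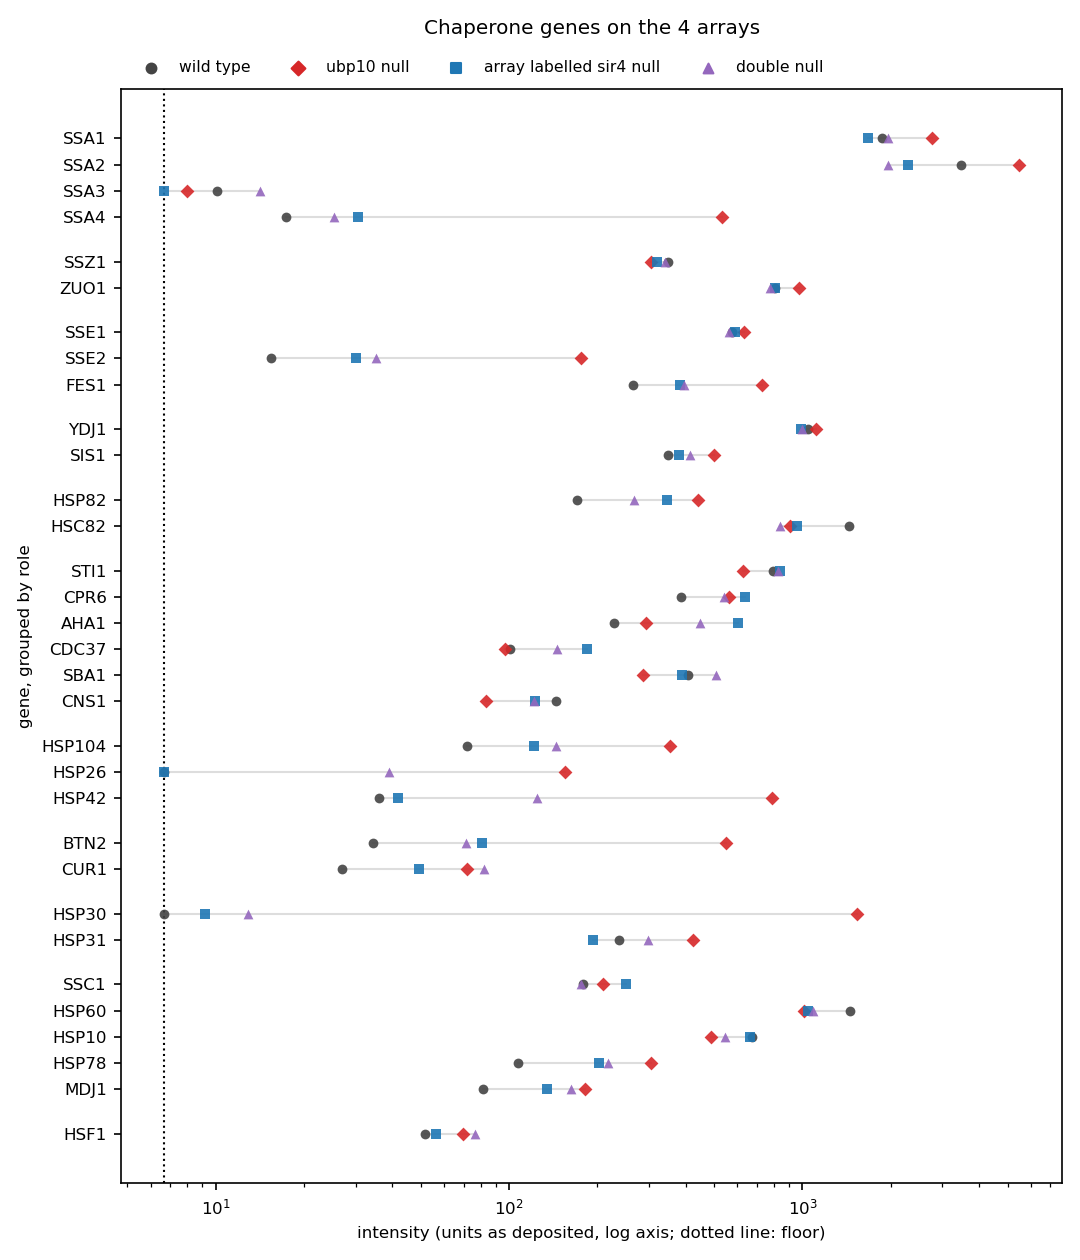
Intensity of the 32 chaperone genes with their own probe set on each of the 4 arrays (log axis, deposited units), in groups by role; 1 marker is 1 array, the dotted line is the floor of 6.67 units, and values under it are drawn there. The ubp10 null marker lies far to the right of the other three for HSP30, SSA4, HSP42, BTN2 and SSE2, while for YDJ1, SSE1 and SSZ1 the 4 markers nearly coincide.

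Among the 4 cytosolic Hsp70 genes, 1 rose, SSA4, the strongly heat-inducible member. SSA4 read 17.4 units in wild type, 531.1 in the ubp10 null, 30.5 for the labelled sir4 null array and 25.3 in the double null. The ubp10 null value stood alone, 30.5-fold above wild type, and ranked 9 from the top among all genes. SSA1 and SSA2, the constitutive members, were not called, at 1.49 and 1.57 times wild type.

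SSA1 read 1863.0, 2772.3, 1666.6 and 1953.6 units on the wild-type, ubp10 null, labelled sir4 null and double null arrays. SSA2 read 3480.9, 5480.6, 2283.0 and 1949.5 units in the same order. Both genes were brightest in the ubp10 null. The 2 probe sets listed for both genes were at 1.52 and 1.05 times wild type there. SSA3, another stress-induced member, was near the floor on every array, with 10.1, 8.0, 5.4 and 14.2 units.

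The nucleotide exchange factors repeated this division between related genes. SSE2, the inducible gene of the Hsp110 pair, read 15.4 units in wild type, 175.3 in the ubp10 null, 30.0 for the labelled sir4 null array and 35.2 in the double null. SSE2 was 11.4-fold higher in the ubp10 null than in wild type, whereas SSE1 was at 1.10 times wild type and between 561.8 and 630.9 units on all 4 arrays. FES1, which encodes an exchange factor of another family, read 264.1, 729.0, 382.7 and 394.1 units and rose 2.76-fold. The J protein genes YDJ1 and SIS1, whose products deliver clients to Hsp70, were not called, at 1.06 and 1.44 times wild type.

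The Hsp70 system that sits on the ribosome and receives nascent chains gave no call in the ubp10 null. Only 2 of its genes had their own probe set, and among all genes 9.44% were called higher and 8.38% lower. SSZ1 and ZUO1, which encode the ribosome-associated complex, read 347.3 and 805.8 units in wild type and 303.6 and 971.1 in the ubp10 null. Neither was called in any of the 5 comparisons. The probe set shared by SSB1 and SSB2, the Hsp70 genes of this system, read 1717.5, 2116.6, 1224.1 and 1198.6 units on the wild-type, ubp10 null, labelled sir4 null and double null arrays.

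The Hsp90 genes differed, with 1 of the pair called. HSP82, the heat-inducible gene, read 170.4 units in wild type, 441.8 in the ubp10 null, 345.6 for the labelled sir4 null array and 265.9 in the double null, and was 2.59-fold higher in the ubp10 null than in wild type. HSC82, the constitutive gene, read 1437.9, 909.1, 956.5 and 840.6 units and was not called, at 1.58-fold below wild type. The ratio of HSP82 was thus 4.10 times that of HSC82. The probe set listed for both genes read 2374.4, 2104.9, 1378.5 and 1632.7 units, 1.13-fold lower in the ubp10 null than in wild type.

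**Figure D2:**
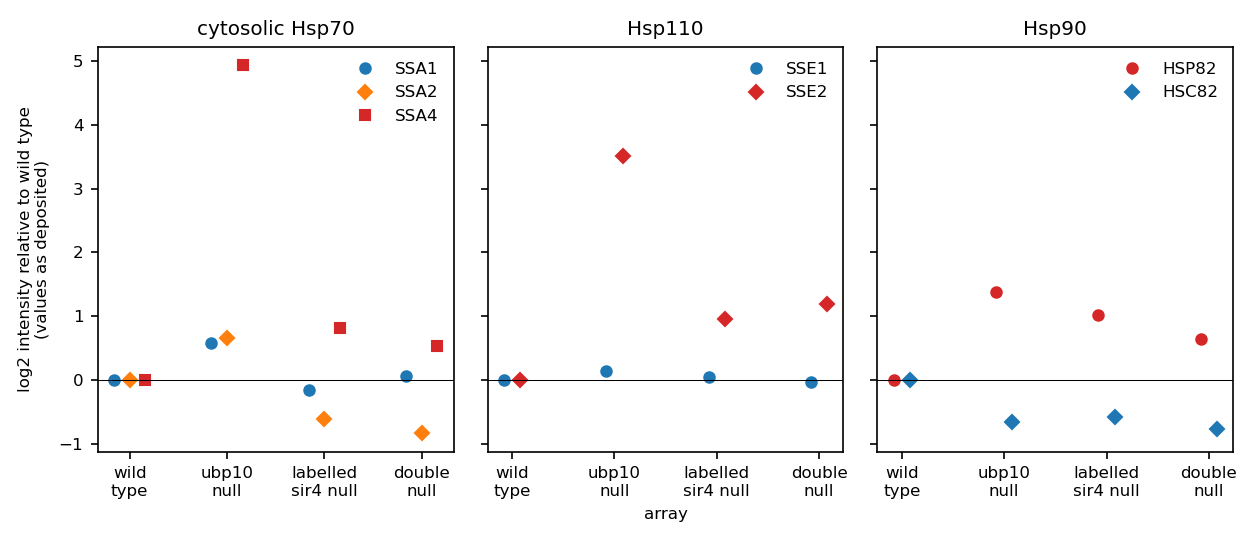
Log2 intensity relative to wild type, from values as deposited, for related Hsp70, Hsp110 and Hsp90 genes on the 4 arrays; 1 marker is 1 array. In the ubp10 null SSA4, SSE2 and HSP82 lie 4.93, 3.51 and 1.37 above wild type, while SSE1 lies at 0.14 and HSC82 at -0.66.

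None of the 6 Hsp90 cochaperone genes was called in the ubp10 null. Among all genes 9.44% were called higher and 8.38% lower, so 0 of 6 is near those shares. CPR6, a cyclophilin, and AHA1, which stimulates the Hsp90 ATPase, were at 1.46 and 1.28 times wild type. CDC37, which serves kinase clients, STI1, which links Hsp70 to Hsp90, SBA1, the p23 protein, and CNS1, an essential Hsp90 partner, were 1.05-, 1.26-, 1.43- and 1.73-fold below it. The group's median log2 ratio was -0.20.

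All 3 genes of protein disaggregation and aggregate holding rose in the ubp10 null. HSP42, a small Hsp that gathers misfolded protein, read 36.1 units in wild type, 790.0 in the ubp10 null, 41.7 for the labelled sir4 null array and 124.9 in the double null, a rise of 21.9-fold over wild type in the ubp10 null. HSP26, the other small Hsp, read 5.2, 154.7, 6.1 and 39.1 units on the same arrays. It was under the floor in wild type, so its rise was at least 23.2-fold. HSP104, the disaggregase, read 72.0, 353.2, 121.7 and 144.4 units and rose 4.91-fold. For each of the 3 the ubp10 null array was highest and the double null array second.

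The sorting factors rose with them. BTN2, whose product directs misfolded protein to deposition sites, read 34.3 units in wild type, 548.6 in the ubp10 null, 81.0 for the labelled sir4 null array and 71.4 in the double null, and rose 15.99-fold. Its relative CUR1 read 27.0, 71.6, 49.5 and 82.1 units and rose 2.65-fold. CUR1 was the exception among the 12 raised genes, since its highest value was in the double null, and the other 11 were highest in the ubp10 null.

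HSP30 had the largest ratio of all 5656 genes. This plasma membrane protein, which restrains the proton-pumping ATPase under stress, read 5.2 units in wild type, 1535.5 in the ubp10 null, 9.2 for the labelled sir4 null array and 12.9 in the double null. The gene was thus under the floor in wild type and bright on 1 array alone, at least 230.2-fold above wild type. HSP31, a DJ-1 family enzyme, read 236.3, 424.6, 192.6 and 298.3 units and was not called, at 1.80 times wild type.

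The mitochondrial chaperones were divided as well, with 2 of 5 called. HSP78, the matrix relative of Hsp104, read 107.2, 305.3, 202.6 and 216.8 units on the wild-type, ubp10 null, labelled sir4 null and double null arrays and rose 2.85-fold in the ubp10 null. MDJ1, the matrix J protein, read 81.8, 180.8, 134.6 and 162.9 units and rose 2.21-fold, the smallest of the 12 rises. The main matrix Hsp70 gene SSC1 was at 1.17 times wild type, and the chaperonin genes HSP60 and HSP10 were 1.44- and 1.38-fold below it.

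HSF1 itself was not called in any comparison. It read 51.6 units in wild type, 69.8 in the ubp10 null, 56.3 for the labelled sir4 null array and 76.6 in the double null, a ratio of 1.35 in the ubp10 null. The array measures the transcript only, and the activity of the factor was not measured.

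The wider folding machinery was read from 47 other genes, of which 44 had their own probe set. In the ubp10 null 6 were higher and 2 lower (13.6% and 4.55%), against 9.44% and 8.38% of all genes. The median log2 ratio of the 44 was 0.01. The J protein gene APJ1 rose 5.11-fold, from 9.8 to 50.1 units, the membrane-protective HSP12 3.99-fold, from 24.7 to 98.5, and the polyubiquitin gene UBI4 3.11-fold, from 341.6 to 1060.9. The Hsp90 cochaperone gene TAH1 fell 3.68-fold, from 118.0 to 32.1 units. Of the 8 genes of the cytosolic chaperonin CCT, 1 was lower and 0 higher, and of the 6 prefoldin genes 0 were called.

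The measured genes next to the raised chaperone genes on the chromosome were called at shares near those of all genes. The 12 genes had 24 immediate protein-coding neighbours, of which 18 were measured, and 1 of these was called higher and 1 lower, with a median log2 ratio of -0.12, beside 9.44% higher and 8.38% lower among all genes. The higher one was TDA6, beside CUR1, which went from the floor to 46.6 units. HTL1, the measured neighbour of HSP30, read 7.0 units in wild type and 7.5 in the ubp10 null, under the brightness limit for a call. EXO84, beside FES1, and YAP6, beside HSP78, were at the floor on both arrays and could not be called. Of the 34 genes, HSP31 and ZUO1 lay nearest to a chromosome end, each with 8 protein-coding genes beyond it, and neither was called in this comparison.

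**Figure D3:**
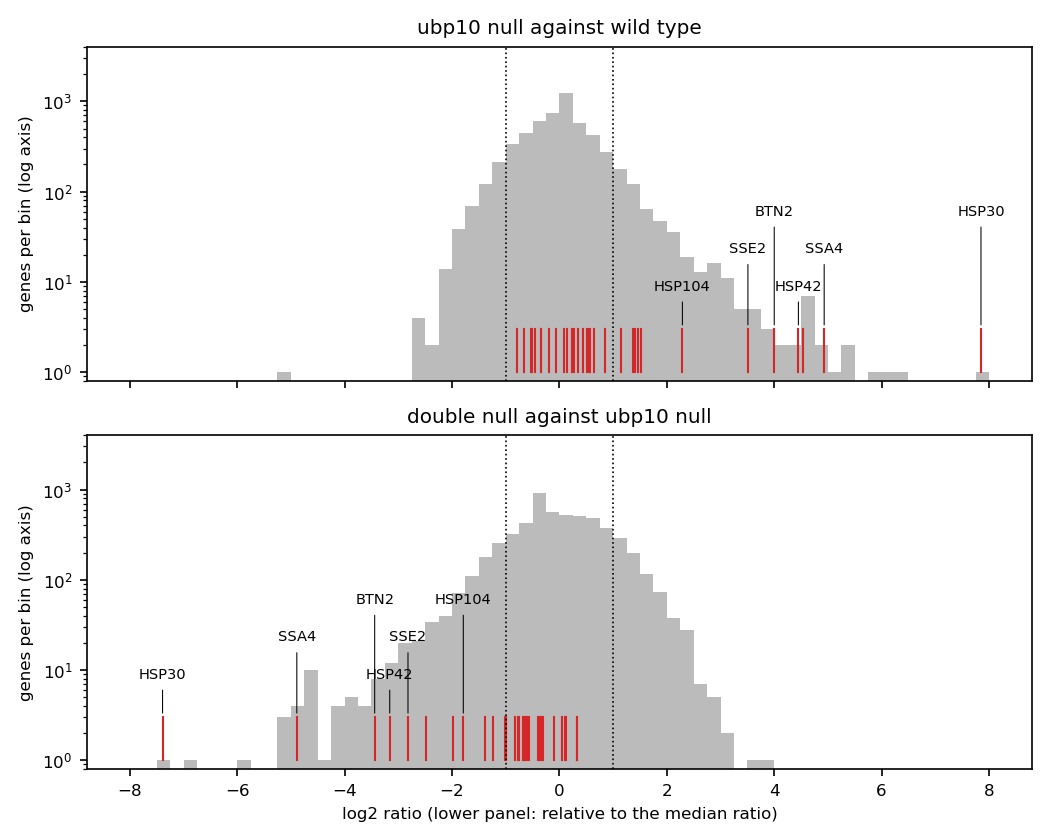
Histograms of the log2 ratio over 5656 genes (log count axis, bins of 0.25) for ubp10 null over wild type and for double null over ubp10 null, with the 32 chaperone genes as red ticks and dotted lines at 2-fold. HSP30 is at 7.85 in the upper panel and -7.39 in the lower, at the end of each distribution; both panels use the same ubp10 null array.

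On the array labelled sir4 null few chaperone genes were called. Relative to the median ratio, 0 of 32 genes were called higher than wild type and 2 lower (6.25%), against 6.03% higher and 9.65% lower among all genes. The list's median log2 ratio was -0.37, against -0.09 over all genes. As deposited it was 0.12, against 0.41 over all genes, so it stayed below the median of all genes. Under quantile normalization and cyclic loess the list's median was 0.34 and 0.12, with no value over all genes taken. None of the 12 genes raised in the ubp10 null was called higher, and BTN2 at 1.68 times wild type had the largest ratio among them. AHA1 had the largest of the set, at 1.87, with 602.5 units against 228.3 in wild type. As deposited, without the median subtracted, AHA1, BTN2 and HSP82 were 2.64-, 2.36- and 2.03-fold above wild type and would be called. This array carries the 5′ signal loss of the control probe sets, whose part in these ratios was not tested.

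The 2 lower genes were SSA2 and HSC82, at 2.15- and 2.12-fold below wild type, and both are bright. Of the 140 genes with a mean of at least 1000 units, 70.7% were called lower on this array, with a median log2 ratio of -1.22. As deposited SSA2 and HSC82 were 1.52- and 1.5-fold lower, short of a call, and SSA2 lay above wild type under quantile normalization and cyclic loess. The part of brightness in both falls was not tested.

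In the double null 3 of the 12 genes raised in the ubp10 null were called above wild type. Against wild type 3 genes were higher and 2 lower (9.38% and 6.25%), against 4.30% and 6.63% of all genes, and the list's median log2 ratio was -0.05, against -0.07 over all genes. As deposited the list's median was 0.49, against 0.47 over all genes. It was 0.44 under quantile normalization and 0.36 under cyclic loess, with no value over all genes taken. Higher were HSP26, by at least 4.02-fold, HSP42, by 2.37-fold, and CUR1, by 2.09-fold. CUR1 was at 0.96 on the log2 scale under cyclic loess, just short of a call. SSA4, BTN2, SSE2 and HSP104, all raised in the ubp10 null, were at 1.00, 1.43, 1.57 and 1.38 times wild type. HSP30, at 12.9 units and at least 1.33 times wild type, was under the brightness limit and was not called. As deposited 7 genes were called higher, with SSE2, BTN2, HSP78 and HSP104 added at 2.29-, 2.08-, 2.02- and 2.01-fold above wild type.

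SSA2 and HSC82 were again the lower genes, by 2.6- and 2.49-fold. In this comparison 80.7% of the 140 bright genes were called lower, with a median log2 ratio of -1.30. As deposited the pair were 1.79- and 1.71-fold lower and not called. SSA2 lay at 0.09 above wild type on the log2 scale under quantile normalization and cyclic loess. The shared probe sets of SSB1 with SSB2 and of HSP82 with HSC82, bright as well, were 2.08- and 2.11-fold below wild type.

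Set directly against the ubp10 null array, the double null array had 12 chaperone genes lower (37.5%) and 0 higher, against 13.2% lower and 13.4% higher among all genes. The list's median log2 ratio was -0.71, against -0.09 over all genes. The largest falls were those of HSP30 (168.2-fold), SSA4 (29.7-fold), BTN2 (10.9-fold) and HSP42 (8.94-fold), followed by SSE2 (7.04-fold), HSP26 (5.59-fold) and HSP104 (3.46-fold). These 7 calls held under every alternative scaling, floor and threshold tried. This comparison shares the ubp10 null array with the comparison against wild type, so a high reading on that array alone would give both the rise and the fall.

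The other 5 lower genes were SSA2 (3.97-fold), FES1 (2.61-fold), HSP82 (2.35-fold), and HSP31 and SSA1 (each 2.01-fold). All 5 lost the call under quantile normalization and cyclic loess, and SSA1 then lay above the ubp10 null. SSA2 and SSA1 are among the 140 bright genes, of which 74.3% were called lower here, while FES1, HSP82 and HSP31 are dimmer. The part of brightness was not tested. The 3 raised genes not called lower were CUR1, MDJ1 and HSP78, at 1.23-, 1.57- and 1.99-fold below the ubp10 null, and as deposited CUR1 lay 1.15-fold above it.

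Of the 44 other folding genes 9 were higher and 7 lower in the double null mutant than in the ubp10 null (20.5% and 15.9%). Among all genes the shares were 13.4% and 13.2%. The median log2 ratio of the 44 was 0.03. UBI4 (5.52-fold), APJ1 (4.17-fold) and the J protein gene JJJ2 (3.91-fold) were lower, and TAH1 was 3.86-fold higher. HSP12 had its highest value in the double null, with 24.7, 98.5, 66.8 and 219.8 units on the wild-type, ubp10 null, labelled sir4 null and double null arrays.

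The double null was also set over the array labelled sir4 null. By their labels both strains lack SIR4 and differ in UBP10, and the comparison shares no array with the ubp10 null against wild type. These arrays also differed in MFA2, 51.4-fold lower in the double null, and in the ACT1 3′ to 5′ ratio, 1.5 there against 86.9. The part of these differences in the ratios was not tested. Of the 32 genes 3 were higher and 0 lower (9.38% and 0.00%), against 7.94% and 3.11% of all genes, and the list's median log2 ratio was 0.05. HSP26 was higher by at least 5.86-fold and HSP42 by 3.0-fold, and both were also raised in the ubp10 null. SSA3 was called at least 2.13-fold higher, but from 14.2 units, close to the brightness limit, and the call was lost with the floor doubled, under quantile normalization and cyclic loess, with a ratio of at least 3 and with a higher brightness limit. SSA4, BTN2, SSE2, HSP104 and HSP30 had log2 ratios of -0.27, -0.18, 0.23, 0.25 and 0.49, against 4.93, 4.00, 3.51, 2.29 and at least 7.85 in the ubp10 null over wild type.

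**Figure D4:**
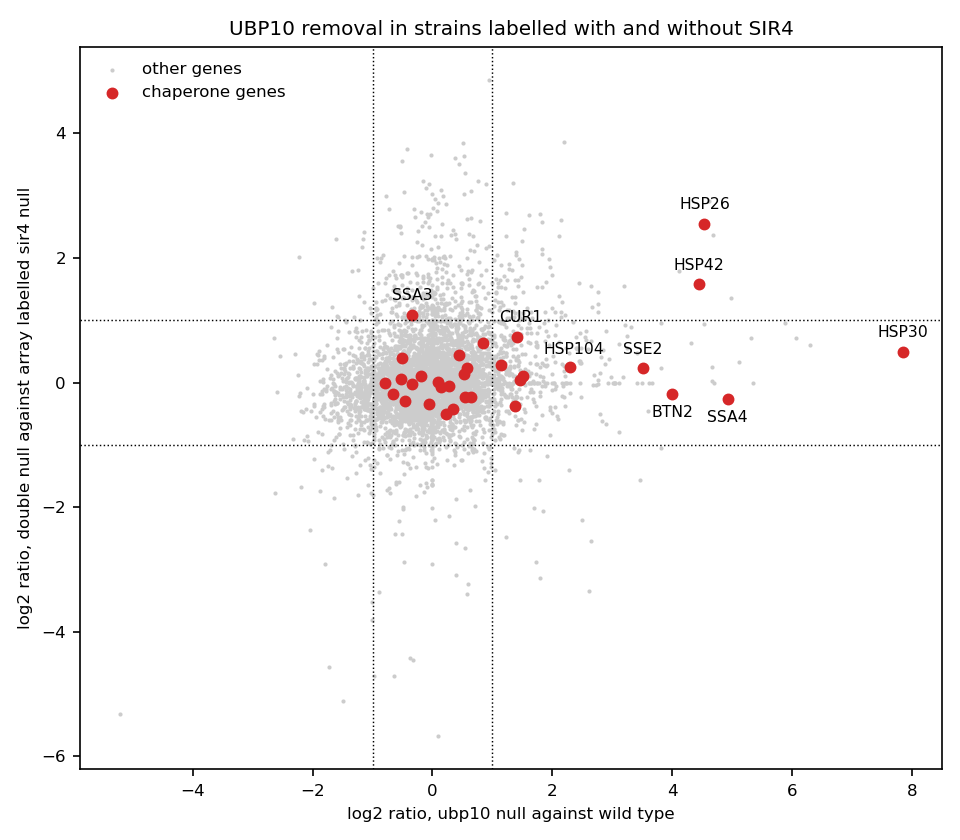
Log2 ratio of each gene for UBP10 removal in strains labelled as having SIR4 (horizontal, ubp10 null against wild type) and as lacking it (vertical, double null over labelled sir4 null), for 32 chaperone genes in red and all other genes in grey, with dotted lines at 2-fold. HSP26 and HSP42 pass 2-fold on both axes, while HSP30, SSA4, BTN2, SSE2 and HSP104 lie far right and within 2-fold vertically. The vertical axis uses the array with the 5′ signal loss, whose part was not tested.

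A value over all 4 arrays describes this difference, the log2 level in the double null minus those of both single nulls plus wild type, relative to its median of 0.09 over genes above the floor on every array. It was at or below -1 for 10 of the 32 chaperone genes (31.2%) and at or above 1 for 1 (3.12%), against 12.3% and 11.6% of all genes. The most negative values were -7.44 for HSP30, the lowest of all 5656 genes, -5.29 for SSA4, -4.27 for BTN2, -3.36 for SSE2 and -2.95 for HSP42. HSP30 and HSP26 (-2.07) were under the floor in wild type, so their values depend on the floor. The gene at or above 1 was SSA3 (1.34), which was under the floor on the array labelled sir4 null and near it on the others. The measure subtracts the ubp10 null level, so a high reading on that array alone would give both the rise over wild type and a negative value here. It also uses the array labelled sir4 null and has no error, so the departure was not tested.

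**Figure D5:**
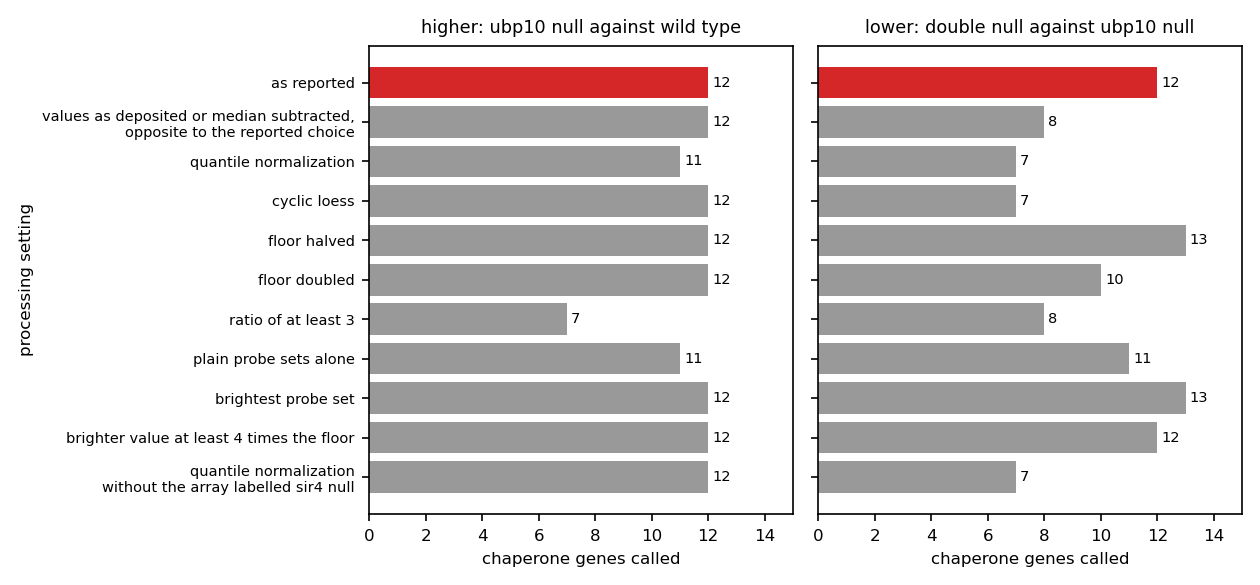
Number of chaperone genes called (horizontal) under each processing setting (vertical), for genes higher in the ubp10 null than in wild type and genes lower in double null than ubp10 null; red bars are the values reported. The first count is 11 or 12 except with a ratio of at least 3, where it is 7, and the second ranges from 7 to 13.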

How the data were processed

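Each of 4 Affymetrix Yeast Genome S98 arrays, 1 per strain, had 9335 probe sets, 60 of them controls. The deposited values are intensities that, per the labels, came from MAS 4.0. The sources used here do not state a global scaling. The values are linear and 7.4% to 9.4% of them were below 0. A mean trimmed at percentiles 2 and 98 was 100.0 on every array. The number of arrays limits the precision, and no test was possible.

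Probe sets were named from the platform annotation, updated by gene identifier to the RefSeq table of assembly R64: 6504 had 1 gene, 328 several and 2443 were unlisted. The noise SD, 2.22 units, came from the negative values, scaled from the median of their size. Log2 values of a gene's probe sets were averaged after flooring. A median log2 ratio over 0.1 in size was subtracted before calling. The calling step was tested on simulated data. Genes are given on every array where they were called in any of the 5 comparisons; of the other folding genes, the 4 largest called changes in 2 comparisons are named. Members, lists and named alternatives were chosen with earlier results of these data known. The bright genes and the chromosomal neighbours were examined after seeing the data. Python 3.11.15, numpy 2.4.6, pandas 2.3.3 and R 4.3.3 with limma 3.58.1 were used.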

Additional observations from a re-analysis of the deposited data

How the results depend on the processing

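Of 34 pairs of a chaperone gene and a comparison with a call, 16 kept it under every setting, and HSF1 gained a call in 0 of 48 ratios. The 12 rises in the ubp10 null stayed at 11 or 12 except with a ratio of at least 3, which left 7. With plain probe sets alone, those without a suffix letter in the name, HSP82 and SSA1 were not measured and 11 of 30 genes were higher. Quantile normalization took MDJ1 to 0.97 on the log2 scale. The 12 falls from ubp10 null to double null became 8 as deposited, 7 under quantile normalization, cyclic loess and 3-array quantile normalization, which omits the array labelled sir4 null and was added after seeing the data, 8 with a ratio of at least 3, and up to 13 with the floor halved.

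Against wild type, genes higher on the array labelled sir4 null numbered 3 as deposited and 1 under quantile normalization and under cyclic loess, in place of 0. In the double null they numbered 7 as deposited and 1 with a ratio of at least 3, in place of 3. The 2 genes lower in each comparison became 0 as deposited, under quantile normalization, cyclic loess and a ratio of at least 3, and, for the double null, under 3-array quantile normalization. Genes higher in the double null than on the array labelled sir4 null fell from 3 to 1 with a ratio of at least 3.

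Among called ratios the sign turned for 2 genes. SSA2 on the array labelled sir4 null went to 0.42 (quantile) and 0.31 (loess). Its ratio of double null to wild type went to 0.09 under quantile normalization, cyclic loess and 3-array quantile normalization, and was -0.84 as deposited. The SSA1 ratio of double null to ubp10 null went to 0.43 (quantile), 0.39 (loess) and 0.46 (3-array quantile). The cause was not tested. Of ratios not called, that of HSF1 turned to 0.13 as deposited on the array labelled sir4 null and from ubp10 null to double null, and to -0.07 under loess in the double null against wild type. The list's median went from -0.37 to 0.12, 0.34 and 0.12 on the array labelled sir4 null and from -0.05 to 0.49, 0.44 and 0.36 for the double null against wild type (as deposited, quantile, loess). As deposited the median over all genes was 0.41 and 0.47 in the same order of comparisons.

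Among all genes the split of higher and lower calls as deposited was 1120 and 252 on the array labelled sir4 null, 1051 and 117 for the double null, and 1598 and 354 from ubp10 null to double null, against 341 and 546, 243 and 375, and 756 and 749 as reported. Under quantile normalization these were 427 and 359, 293 and 167, and 1013 and 504, and under cyclic loess 218 and 495, 228 and 211, and 765 and 617. With a ratio of at least 3 they were 74 and 209, 57 and 107, and 223 and 311, and 215 and 107 in the ubp10 null. No paired analysis was possible because each strain had 1 array. Genes near the floor are limited by signal over background, so the rises of HSP30 and HSP26 are lower bounds.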
